A study of Canis lupus familiaris with 6 samples.

Results

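Cells hold on to the matrix around them through integrins, and the thin sheet of matrix that wraps a fat cell, the basement membrane, is built on laminins. The genes described here are the integrin and laminin subunits together with NID1, NID2, HSPG2 and AGRN, the linkers that join laminin networks to other matrix. They were chosen by name from the deposited table: names beginning with ITGA or ITGB and a number, ITGAV, names beginning with LAMA, LAMB or LAMC and a number, and the 4 linkers. The rule took 39 of the 23299 genes in the table, and all 39 matched a symbol in NCBI's list of dog genes. They were 20 integrin subunits, 12 laminin chains, 4 linkers and 3 genes whose names carry the prefix but encode no integrin, ITGB1BP1, ITGB1BP2 and ITGB3BP.

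Messenger RNA came from canine adipose-derived stem cells, fibroblast-like precursors taken from dog fat, after 14 days in adipogenic medium. The first group (n = 3 libraries) received 1 µM bisphenol A (BPA), a plastic monomer that binds oestrogen receptors, and the second (control, n = 3) received the solvent DMSO. Both groups had 2 days of culture before induction, and both then received 1 µM dexamethasone, 200 nM rosiglitazone (an agonist of PPARG) and 10 µg/mL insulin, so every library holds a response to these agents. The labels do not say whether the libraries of a group are separate cultures or animals, so p-values here measure the spread between these libraries, which may be technical. Undifferentiated cells were not analysed here.

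An integrin is a pair of an α and a β subunit that crosses the cell membrane, and the pairing sets the ligand. The α5 subunit pairs with β1 to bind fibronectin, the αV subunit binds proteins with an RGD motif through several β partners, α1, α2, α10 and α11 bind collagens with β1, and α3, α6 and α7 bind laminins. A laminin is a trimer of an α, a β and a γ chain. Nidogens (NID1, NID2) bridge the laminin γ1 chain to collagen IV, perlecan (HSPG2) is a large heparan sulphate proteoglycan, and agrin (AGRN) binds laminin and dystroglycan. Fat cells in tissue are each surrounded by a basement membrane, and in mouse preadipocytes a shift from integrin α5 to α6 has been described during differentiation.

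Levels are in TPM, a transcript's share of its library scaled to 1000000 and corrected for length, so that genes can be compared within a library. A gene can lie lower in TPM because others lie higher. The log2 changes are differences of log2(TPM + 1), BPA minus control, and understate the change of genes with few transcripts. Of the 39 members, 26 passed the expression filter (a mean log2(TPM + 1) of at least 1) and were tested among 12277 genes. The 26 were 12 integrin subunits, 7 laminin chains, 4 linkers and 3 binding proteins.

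On the first principal component, with 79.8% of the variance between libraries, the groups overlapped. BPA replicates 1, 2 and 3 scored -29.9, -0.10 and 61.1, and the control libraries, in the same order, -28.1, 11.3 and -14.4. BPA replicate 3 thus stood apart, and results that rest on it are given with and without it. Adipocyte markers were present: all 8 on the list passed the filter, with 7 above control (background 56.6% of all tested genes) and 1 below. At an unadjusted p under 0.05 by limma 5 were higher (background 1.87%) and 1 lower (background 1.7%). After adjustment 0 of them passed. Adiponectin (ADIPOQ) had 32.3, 40.4 and 26.2 TPM with BPA and 9.47, 14.7 and 7.99 TPM in control. Leptin (LEP), the 1 below, had 145, 143 and 125 TPM with BPA and 163, 157 and 167 TPM in control. Markers of endothelial cells (7 in the table), epithelium (4), platelets (2) and Schwann cells (3) were under 1 TPM in every library. PTPRC, the marker of all leukocytes, reached at most 0.007 TPM, although 3 of the 5 leukocyte markers in the table, CD14, CD68 and CSF1R, passed the filter. The 5 summed to between 30.8 and 51.8 TPM with BPA and between 28.0 and 39.3 TPM in control.

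Integrin β1 and integrin α5 were the most abundant members. ITGB1, the common β subunit, had 1379, 1205 and 1023 TPM in the BPA libraries, always listed here as replicates 1, 2 and 3, against 1299, 1231 and 1291 TPM in the control libraries. The lowest of these was BPA replicate 3, and the groups overlapped (log2 change -0.09, SE 0.13). ITGA5, the fibronectin receptor's α subunit, had 412, 849 and 2672 TPM with BPA, against 431, 1252 and 717 TPM in control. Its highest library was BPA replicate 3 and its second was control replicate 2, while BPA replicate 1 and control replicate 1 were the lowest (log2 change 0.42, SE 0.75). The ITGA5 transcript was 0.299, 0.705 and 2.61 times as abundant as ITGB1 with BPA, and 0.332, 1.02 and 0.555 times in control. In BPA replicate 3 and control replicate 2 the α5 transcript therefore exceeded that of its β1 partner, and in the other 4 libraries it did not. Which of these transcripts limits the receptor at the surface was not measured.

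The other RGD-binding subunits were far steadier. ITGAV had 209.7, 212 and 234 TPM with BPA and 202, 223 and 217 TPM in control, a highest-to-lowest ratio of 1.16 over the 6 libraries against 6.48 for ITGA5. ITGA8, an α subunit known from mesenchymal and smooth muscle cells, lay between 8.97 and 10.1 TPM with BPA and between 9.46 and 10.0 TPM in control. For both genes the groups overlapped, with log2 changes of 0.03 (SE 0.09) and -0.04 (SE 0.09). ITGA5 made up 58.3%, 73.6% and 87.0% of the summed integrin α TPM with BPA, and 59.9%, 78.8% and 69.7% in control. ITGAV took 29.7%, 18.4% and 7.62% with BPA, and 28.1%, 14.0% and 21.1% in control. Where the share of ITGA5 was high that of ITGAV was low, although the level of ITGAV hardly moved.

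Of the β subunits other than β1 that pair with αV, ITGB5, which with αV binds vitronectin, was the most abundant. It had 28.0, 45.9 and 84.1 TPM with BPA, against 31.7, 52.1 and 36.7 TPM in control (log2 change 0.27, SE 0.42). ITGB3, the β subunit of the platelet and osteoclast integrins, had 4.93, 5.88 and 7.497 TPM with BPA and 5.09, 6.12 and 5.40 TPM in control (log2 change 0.11, SE 0.16). Both were highest in BPA replicate 3 with control replicate 2 second, and for both the groups overlapped. ITGB8, another partner of αV, reached at most 0.0378 TPM in any library.

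Among collagen-binding α subunits ITGA1 was even across libraries and ITGA11 was not. ITGA1 had 44.9, 42.9 and 55.4 TPM with BPA and 43.3, 49.1 and 42.8 TPM in control (log2 change 0.07, SE 0.13). ITGA10 had 20.01, 24.0 and 59.3 TPM with BPA and 20.7, 31.7 and 24.0 TPM in control (log2 change 0.28, SE 0.42). ITGA11, a collagen receptor of fibroblasts, had 6.28, 10.1 and 29.7 TPM with BPA and 8.48, 16.7 and 12.4 TPM in control (log2 change 0.05, SE 0.56). Both were highest in BPA replicate 3, and BPA replicate 1 was the lowest library for each. Without BPA replicate 3 the log2 change of ITGA11 was -0.54 (SE 0.32), the most negative of any tested member in that fit, at an unadjusted p of 0.153 by limma. ITGA2 was near the filter, at 1.38, 1.13 and 0.952 TPM with BPA and 1.24, 1.30 and 1.35 TPM in control (log2 change -0.10, SE 0.10).

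Laminin-binding α subunits had few transcripts. ITGA6 had 1.44, 1.70 and 2.16 TPM with BPA and 1.27, 1.4996 and 1.62 TPM in control, with overlapping groups (log2 change 0.16, SE 0.13). ITGA3 had 0.995, 1.95 and 4.84 TPM with BPA and 0.935, 2.41 and 1.44 TPM in control (log2 change 0.36, SE 0.43). ITGA7, best known from muscle, lay under the filter at 0.158, 0.373 and 0.962 TPM with BPA and 0.196, 0.232 and 0.269 TPM in control. In every one of the 6 libraries ITGA5 was thus the major α subunit and ITGA6 a minor one at this day of differentiation. The β4 subunit, which pairs with α6 in the hemidesmosomes of epithelia, reached at most 0.0568 TPM.

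The laminin α chains were led by LAMA4, the α chain of laminins around blood vessels and fat cells. It had 79.04, 84.1 and 106 TPM with BPA, against 76.1, 85.2 and 80.3 TPM in control, with overlapping groups (log2 change 0.15, SE 0.13). LAMA2, the α chain of muscle and nerve basement membranes, had 17.4, 20.6 and 45.3 TPM with BPA, against 14.8, 21.3 and 16.1 TPM in control (log2 change 0.54, SE 0.37). LAMA4 made up 81.1%, 79.3% and 67.3% of the summed laminin α TPM with BPA, and 83.0%, 78.6% and 82.3% in control. The low share in BPA replicate 3 went with higher LAMA2 and LAMA5 there, not with less LAMA4. LAMA5, a broadly expressed α chain of mature basement membranes, had 0.418, 0.658 and 4.68 TPM with BPA and 0.423, 1.17 and 0.612 TPM in control, a highest-to-lowest ratio of 11.2. LAMA3, an epithelial chain, lay under the filter at 0.497, 0.698 and 1.56 TPM with BPA and 0.466, 0.733 and 0.541 TPM in control. LAMA1 was at or near 0 in all 6 libraries, with at most 0.0022 TPM.

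**Figure D1:**
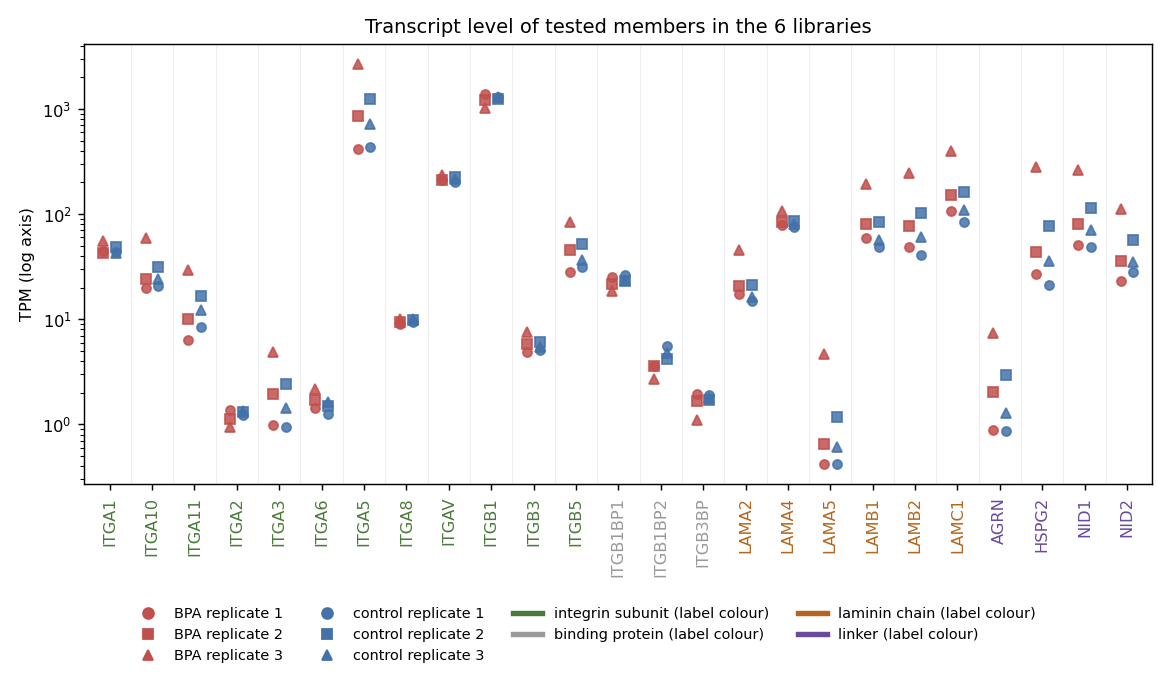
TPM (log axis) of 25 of the 26 tested members in each library, BPA libraries on the left of each pair of columns and control libraries on the right, with a marker shape per replicate and gene names coloured by kind. The triangles of BPA replicate 3 lie apart for ITGA5, the laminin β and γ1 chains and the linkers, while ITGAV and ITGA8 form tight clusters.

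The laminin β and γ1 chains moved together from library to library. LAMB1 had 58.6, 80.0 and 194 TPM with BPA, against 48.6, 83.5 and 57.0 TPM in control (log2 change 0.65, SE 0.47). LAMB2 had 48.7, 76.2 and 246 TPM with BPA, against 41.1, 102 and 60.4 TPM in control (log2 change 0.61, SE 0.65). LAMC1, the γ chain of most laminins, had 108, 152 and 401 TPM with BPA, against 84.04, 162 and 110.4 TPM in control (log2 change 0.71, SE 0.52). In all 3 genes BPA replicate 3 was highest, control replicate 2 second and control replicate 1 lowest, and the groups overlapped. Summed over the chains of each kind, laminin β was 0.893, 0.945 and 1.07 times laminin γ with BPA, and 0.957, 1.08 and 0.984 times in control. Laminin α was 0.810, 0.642 and 0.383 times laminin γ with BPA, and 0.978, 0.631 and 0.818 times in control. The β and γ transcripts thus stayed near parity in every library, and the α transcripts did not keep pace with them in BPA replicate 3.

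LAMC3, LAMB3 and LAMB4 were scarce. LAMC3 reached at most 0.160 TPM, and LAMB3, a chain of epithelial laminin, at most 0.0877 TPM. LAMB4 was listed at 0 in the 3 control libraries and at 0.0113, 0.0068 and 0.0085 TPM in the BPA libraries, levels too low to read, since the depth behind them is unknown.

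**Figure D2:**
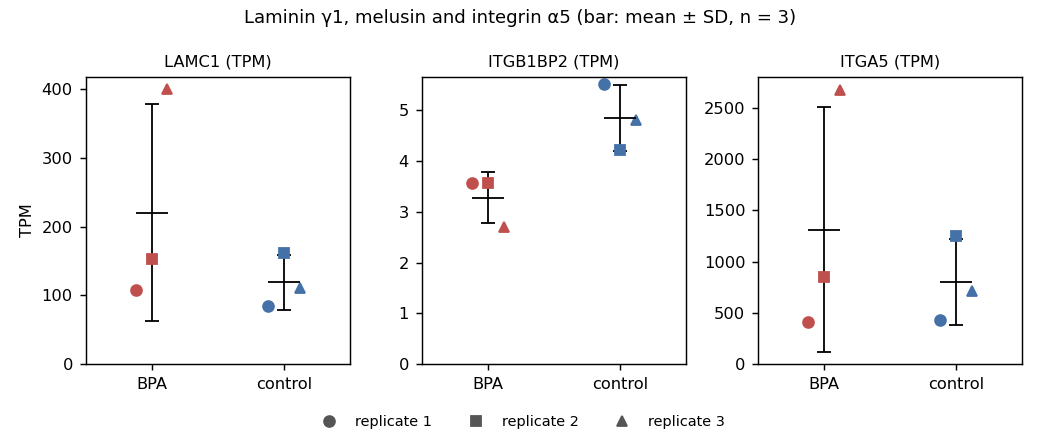
TPM of LAMC1, ITGB1BP2 and ITGA5 in BPA and control libraries, with a point per library (shape by replicate) and the mean ± SD over 3 libraries. ITGB1BP2 lies lower with BPA without overlap, while the BPA means of LAMC1 and ITGA5 are carried by replicate 3 at 401 and 2672 TPM.

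Perlecan had the widest range of the tested members. HSPG2, its gene, had 26.8, 43.7 and 279 TPM with BPA, against 21.2, 77.1 and 35.5 TPM in control, a highest-to-lowest ratio of 13.2 (log2 change 0.82, SE 0.95). NID1 had 50.8, 79.8 and 264 TPM with BPA, against 49.1, 113 and 71.0 TPM in control (log2 change 0.48, SE 0.65). NID2 had 23.3, 35.8 and 113 TPM with BPA, against 28.0, 56.9 and 35.2 TPM in control (log2 change 0.25, SE 0.61). All of these were highest in BPA replicate 3 with control replicate 2 second. AGRN followed the same order at a low level, with 0.887, 2.03 and 7.33 TPM with BPA and 0.873, 2.95 and 1.29 TPM in control (log2 change 0.50, SE 0.59). Without BPA replicate 3 the log2 changes of HSPG2, NID1, NID2 and AGRN were -0.18, -0.20, -0.39 and -0.10. With control replicate 2 left out as well they were 0.31, 0.11, -0.11 and 0.21. The signs thus depended on which of these libraries were kept.

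The 4 linkers summed to 0.313, 0.377 and 0.656 times the summed laminins with BPA, and to 0.360, 0.537 and 0.427 times in control. LAMC1 was 4.61, 4.26 and 3.56 times as abundant as NID2 with BPA, and 3.002, 2.84 and 3.14 times in control. NID1 was 2.18, 2.23 and 2.34 times as abundant as NID2 with BPA, and 1.76, 1.99 and 2.02 times in control. The groups did not overlap for either ratio, but both were picked after their values were seen. Over all 325 pairs of tested members the groups did not overlap for 34 ratios, or 10.5%, close to the share of single genes without overlap (9.37% of all tested genes).

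The 3 genes named for binding integrins all lay lower with BPA in the fit of all libraries. ITGB1BP2, which encodes melusin, a chaperone-like protein of striated muscle that binds the β1 tail, had 3.57, 3.56 and 2.70 TPM with BPA, against 5.52, 4.23 and 4.81 TPM in control. Every BPA library lay below every control library, at a mean of 3.28 ± 0.499 TPM with BPA and 4.85 ± 0.647 TPM in control (SD, n = 3 each). The log2 change was -0.45 (SE 0.14), with an unadjusted p of 0.0175 and an adjusted p of 0.901 by limma, so ITGB1BP2 did not pass. Leaving out BPA replicate 3 gave a log2 change of -0.35 and an unadjusted p of 0.0293. The unadjusted p was above 0.05 without control replicate 1 (0.0641) or control replicate 3 (0.0515).

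ITGB1BP1, which restrains β1 integrin activation, had 25.0, 21.7 and 18.6 TPM with BPA and 26.6, 23.1 and 23.6 TPM in control (log2 change -0.17, SE 0.13). ITGB3BP, a centromere protein and nuclear receptor cofactor, had 1.95, 1.67 and 1.09 TPM with BPA and 1.89, 1.71 and 1.78 TPM in control (log2 change -0.13, SE 0.14). Both were lowest in BPA replicate 3, and both overlapped between groups.

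Apart from ITGB3, given above, subunits known from blood cell integrins had few transcripts. ITGB2, the β subunit of leukocyte integrins, was listed at 0 in 5 libraries and at 0.0160 TPM in BPA replicate 3. ITGB7, the β subunit of lymphocyte homing integrins, ranged from 0.134 to 0.479 TPM with BPA and from 0.135 to 0.195 TPM in control. ITGA2B, the platelet α subunit, ranged from 0.195 to 0.400 TPM with BPA and from 0.221 to 0.298 TPM in control. ITGA4 and ITGA9, which share ligands such as VCAM1, stayed at or under 0.546 TPM. Of the leukocyte α subunits that the name rule leaves out, ITGAM and ITGAE reached at most 0.494 and 1.04 TPM. In all, 13 members lay under the filter, with a highest value of 1.56 TPM, and 6 of them stayed under 0.1 TPM in every library.

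No member passed the test, and no other tested gene did. By limma with Benjamini-Hochberg adjustment 0 of 12277 genes passed at 0.05 (0%), and the smallest adjusted p among the members was 0.901. Members with an unadjusted p under 0.05 numbered 2 of 26, 1 higher and 1 lower (ITGB1BP2), or 7.69%, against 439 genes or 3.58% of all tested genes. By direction the background was 1.87% of genes higher and 1.7% lower. When BPA replicate 3 was left out 2 of 26 members, ITGB1BP2 among them, were at that level, against 5.57% of all tested genes. The groups did not overlap for 2 members, 1 above (5.38% of all tested genes) and 1 below (3.98%), which was ITGB1BP2. With 26 members these shares differ by about 1 gene from the background, so they are not a result about integrins or laminins as a set.

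The direction of the whole set depended on whether BPA replicate 3 and control replicate 2 were kept. With all 6 libraries 20 of 26 members had a log2 change above 0 (background 56.6% of tested genes), with a median of 0.26 against 0.03 over all tested genes. Without BPA replicate 3 there were 8 of 26 (background 57.6%), with a median of -0.06 against 0.02. Without both BPA replicate 3 and control replicate 2 there were 17 of 26 (background 63.9%), with a median of 0.05 over the members and 0.05 over all tested genes. By kind, 7 of 7 laminin chains, 4 of 4 linkers and 9 of 12 integrin subunits lay above control with all libraries. Without BPA replicate 3 these were 5 of 7, 0 of 4 and 2 of 12. With control replicate 2 left out as well, the tested laminin chains described above lay above control, from 0.02 (LAMA5) to 0.41 (LAMC1). In that fit the linkers lay above control except NID2 (-0.11), and integrin subunits lay on both sides, from -0.32 (ITGA11) to 0.16 (ITGA3). Under median centring of the libraries 17 of 26 members lay above control, where 39.5% of all tested genes did.

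**Figure D3:**
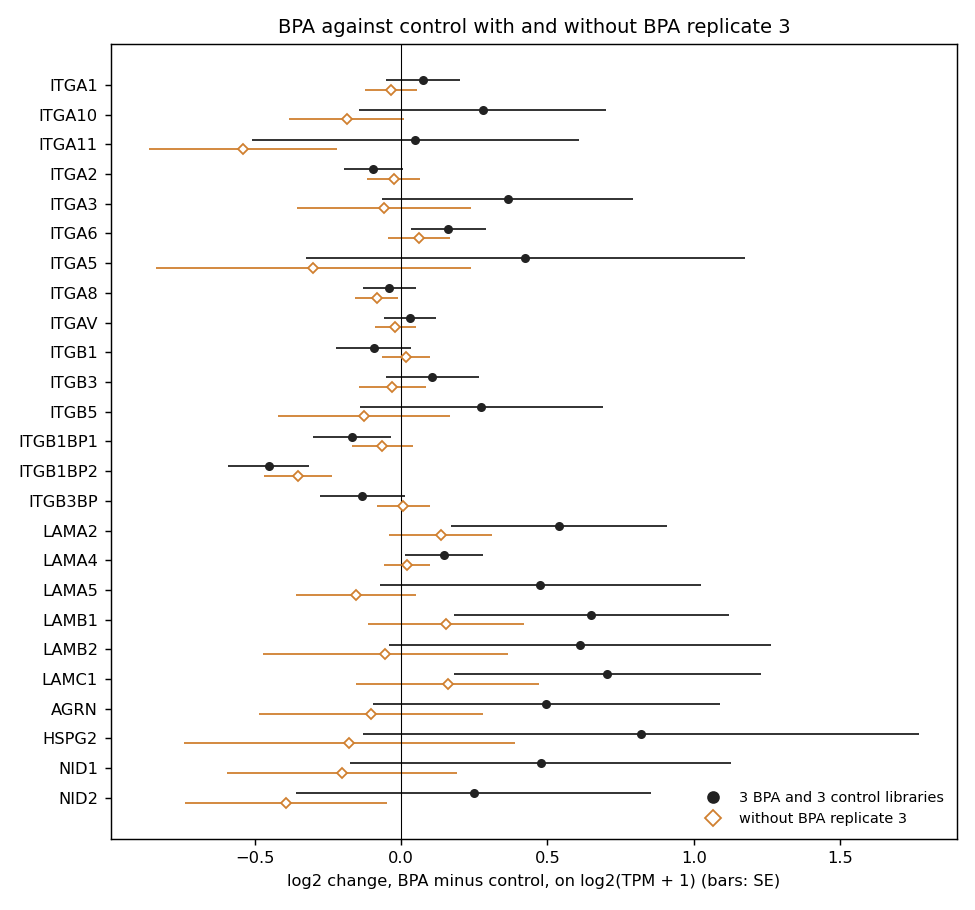
The log2 change of 25 of the 26 tested members, BPA minus control on log2(TPM + 1), with its SE, from 6 libraries (filled circles) and without BPA replicate 3 (open diamonds). Most members move to or past 0 when that library is left out, and ITGB1BP2 (-0.45 and -0.35) does not.

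BPA replicate 3 was the highest of the 6 libraries for 20 of 26 tested members, where it was highest for 38.9% of all tested genes. It was the lowest for 5 of the 26, namely ITGA2, ITGB1 and the 3 binding proteins, where it was lowest for 42.4% of all tested genes. For 18 of the 26 control replicate 2 came second (background 25%), and for 15 the third was BPA replicate 2, an order that 19.8% of all tested genes had. BPA replicate 3 lay at least 1 log2 unit above the mean of the other 5 libraries for 14 members (background 12.3%). The median SE of the log2 change was 0.39 over the members and 0.15 over all tested genes. The highest-to-lowest TPM ratio over the 6 libraries had a median of 2.98 over the members and 1.54 over all tested genes. It was at least 3 for 13 members and under 1.5 for 8.

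The members' median distance from the control mean was -0.12, 0.07 and 1.14 log2 units in the BPA libraries, and -0.23, 0.31 and -0.05 in the control libraries. The median over all tested genes stayed between -0.01 and 0.04 log2 units in the same libraries. Other markers moved with these libraries, in both directions. Adipocyte markers summed to 886, 911 and 649 TPM with BPA and to between 610.1 and 724 TPM in control. In this sum BPA replicate 3 was the lowest of its group, but LPL alone gave 560, 576 and 408 TPM of it. FABP4, a fatty acid carrier, was also lowest of its group there, at 124, 117 and 48.7 TPM with BPA and 43.9, 43.2 and 30.5 TPM in control. Of the 8 markers 2 went the other way: PLIN1 and PLIN4 were highest in BPA replicate 3, at 8.03 and 17.1 TPM. Stromal progenitor markers summed to 250.0, 275 and 460.1 TPM with BPA and to 212, 285 and 225 TPM in control, and 4 of the 5 tested were highest in BPA replicate 3. DPP4, the other, was lowest there. Smooth muscle and pericyte markers were highest there for 4 of 5. The pericyte proteoglycan CSPG4 had the widest range of these, from 6.61 to 58.5 TPM with BPA and from 4.76 to 19.98 TPM in control, and smooth muscle actin (ACTA2) ranged from 1411 to 2013 TPM with BPA and from 1632 to 1908 TPM in control. Calponin (CNN1), the marker not highest there, had 176, 196 and 224 TPM with BPA and 227, 248 and 254 TPM in control, lower in every BPA library. They summed to between 1705 and 2596 TPM with BPA and between 1995 and 2387 TPM in control. The markers' part in the members' order was not tested, and in such bulk libraries more cells of a type and more RNA per cell cannot be told apart. Endothelial markers summed to between 0.580 and 1.07 TPM with BPA and between 0.580 and 0.830 TPM in control, with PECAM1 at or under 0.008 TPM in every library.

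**Figure D4:**
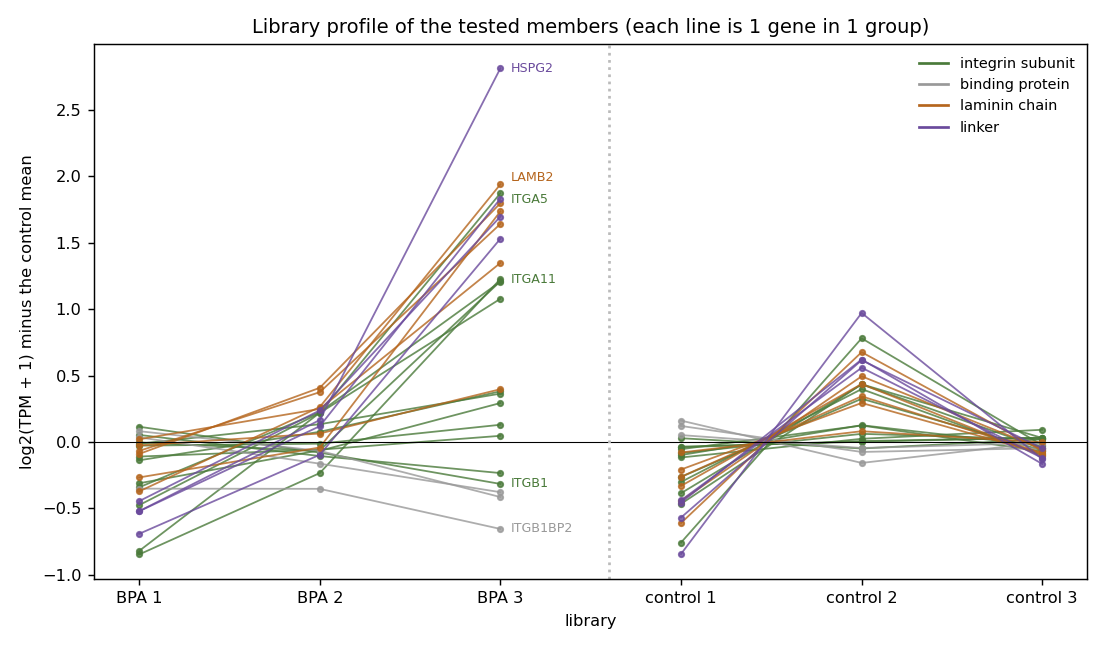
The log2(TPM + 1) of 25 of the 26 tested members minus its control mean, by library, coloured by kind, with a line per gene within each group. Most integrin, laminin and linker lines peak in BPA replicate 3 and, within control, in replicate 2, while ITGB1BP2 is the lowest line in BPA replicate 3.

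Adaptors that tie integrins to actin, and kinases that signal from them, were mostly highest in BPA replicate 3, at 16 of 20 tested (background 38.9%). The other 4, LIMS1, ILK, FERMT2 and PTK2, were lowest there. Of 24 listed genes 20 were tested, and 16 lay above control (background 56.6%) and 4 below, with a median log2 change of 0.29. At an unadjusted p under 0.05 by limma there were 0. Leaving out BPA replicate 3, 4 of 20 lay above control (background 57.6%). VCL (vinculin) and TLN2 (a talin) had the smallest p among the higher, with log2 changes of 0.38 (SE 0.33) and 0.31 (SE 0.27). LIMS1 and ILK, which form a complex at adhesions, had the smallest among the lower, with -0.22 (SE 0.14) and -0.15 (SE 0.11). FLNA, a filamin that crosslinks actin and binds β tails, had 369, 753 and 2712 TPM with BPA and 373, 1212 and 636 TPM in control, named here because its range resembled that of ITGA5.

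Among 20 listed integrin ligands 17 were tested, with 14 above control (background 56.6%) and 3 below, at a median of 0.17. Without BPA replicate 3 there were 6 above (background 57.6%). Nephronectin (NPNT), a basement membrane ligand of integrin α8β1, was the 1 of 17 ligands with an unadjusted p under 0.05. Of all tested genes 3.58% were at that level, so the count is not a result about the ligands. NPNT had 2.33, 2.18 and 2.19 TPM with BPA, against 1.43, 1.64 and 1.57 TPM in control. Its BPA libraries lay above control without overlap, as in 5.38% of all tested genes. Its log2 change was 0.34 (SE 0.08), with an unadjusted p of 0.0062 and an adjusted p of 0.901 by limma. It was not highest in BPA replicate 3. VCAM1 followed at 0.17 (SE 0.10), and THBS1 and EDIL3 had the smallest p among the lower ligands, at -0.14 (SE 0.30) and -0.03 (SE 0.10). Fibronectin (FN1), the ligand of integrin α5β1, had 751, 1025 and 3966 TPM with BPA and 981, 2017 and 1271 TPM in control, so it was highest in the same libraries as ITGA5.

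Another list held laminin-binding proteins other than integrins, with partners of these and of integrins (dystroglycan's complex, syndecans, tetraspanins). In it 12 of 16 tested genes lay above control (background 56.6%), with a median of 0.15. Without BPA replicate 3 there were 6 of 16 (background 57.6%). UTRN (utrophin, which links dystroglycan to actin) had the smallest p among the higher, at 0.17 (SE 0.09). SGCD (a sarcoglycan) and CD63 (a tetraspanin) had it among the lower, at -0.27 (SE 0.13) and -0.08 (SE 0.09). Dystroglycan (DAG1), which binds laminin and agrin, had 11.5, 18.5 and 54.4 TPM with BPA and 10.8, 24.9 and 15.2 TPM in control, again highest in BPA replicate 3.

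Other basement membrane genes had 12 of 13 tested members above control (background 56.6%), with a median of 0.53. Without BPA replicate 3 there were 2 of 13 (background 57.6%). The collagen IV chain COL4A1, to which nidogens attach laminin, had 52.6, 92.9 and 349 TPM with BPA and 46.2, 135 and 76.6 TPM in control. NTN4 and COL18A1 had the smallest p among the higher, at 0.13 (SE 0.10) and 0.96 (SE 0.77), and COL4A4 was the 1 lower gene, at -0.10 (SE 0.09). In both of these lists no gene had an unadjusted p under 0.05.

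**Figure D5:**
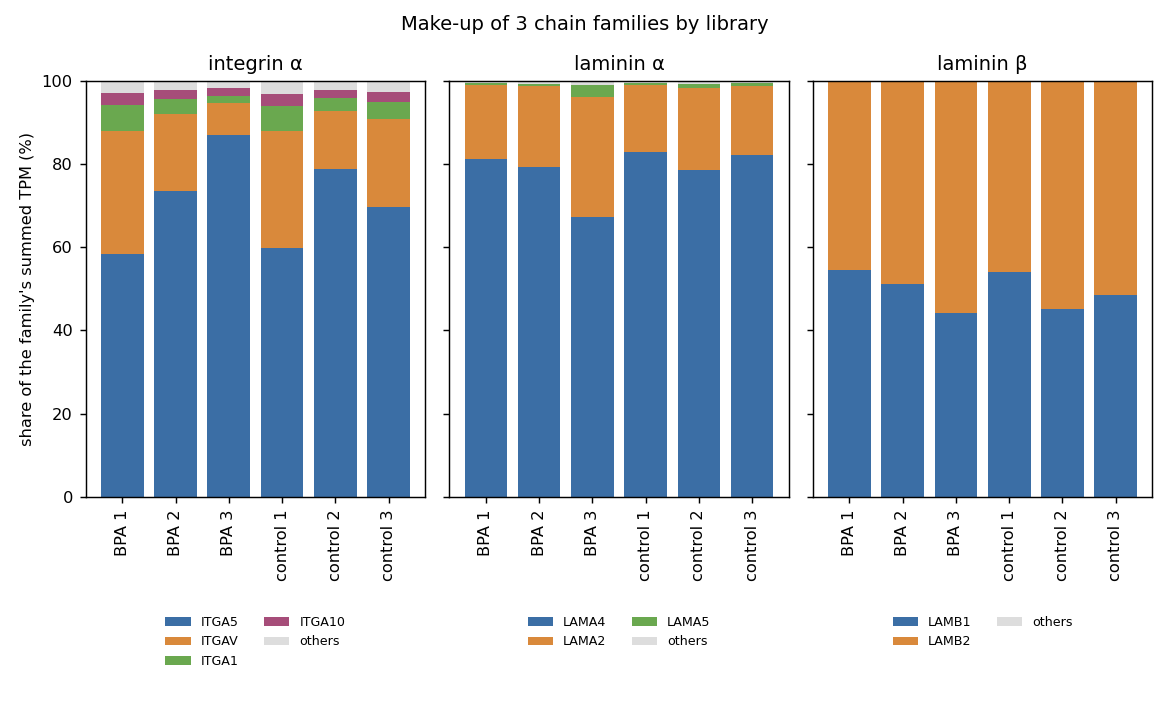
Share of each family's summed TPM by library (stacked to 100%) for integrin α subunits and laminin α and β chains, BPA libraries first. ITGA5 grows to 87.0% in BPA replicate 3, where LAMA4 has its lowest share, 67.3%.

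LAMB2 took 45.4%, 48.8% and 55.9% of laminin β TPM with BPA, and 45.8%, 54.9% and 51.4% in control, so both β chains contributed about equally in every library. ITGB1 took 91.7% or more of integrin β TPM in each of the 6 libraries.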

How the data were processed

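The deposited file is a table of normalized TPM on a log2 scale, with 23299 dog genes and 6 libraries, made by the authors. Raising 2 to each value and subtracting 1 gave a sum of 1000000 per column, so the scale was taken to be log2 of TPM plus 1. Per the labels' protocols, libraries were stranded mRNA libraries for Illumina sequencing. Aligner, counter, annotation and build: not given in the sources used here. Hence no coordinates appear. Read depth cannot be recovered from TPM, and counting intervals are left out. Replicate precision rests on 3 libraries a group.

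The filter was a mean of at least 1 on that scale. BPA was compared with control by limma (version 3.58.1, R version 4.3.3), using moderated two-sided tests with a mean-variance trend and group as the sole term. Benjamini-Hochberg adjustment ran over all 12277 tested genes, at a threshold of 0.05. The test was checked on simulated data in which genes varied independently. Shifts shared by many genes of a library, as described above, were not part of that check. Members and lists were chosen with earlier results of these data known. Results for 1 tested member and 1 listed gene are not reported here. The other tested members were named; those at an unadjusted p under 0.05, without overlap or most abundant in their role were described in full, with up to 2 genes of smallest p per direction from each pathway list. FLNA, FN1, DAG1, COL4A1 and the cell type markers with values were chosen after their values were seen. Alternatives covered filters, pseudocounts, scaling, the variance model, a replicate block and left-out libraries.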

Additional observations from a re-analysis of the deposited data

How the results depend on the processing

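The count of genes past the threshold was 0, but 6 without a filter, 2 with BPA replicate 3 and control replicate 2 both left out, 4629 with array weights, whose estimation stopped short of convergence (7 of them members, the 1 setting where any member passed), and from 0 to 1 when 1 library was left out. The members at an unadjusted p under 0.05 numbered 2, but 1 under the stricter filter (where ITGB1BP2 was not tested), median centring or quantile normalization, 13 with array weights, and from 0 to 2 when 1 library was left out. The members' median log2 change of 0.26 ranged from -0.06 (without BPA replicate 3) to 0.54 (without BPA replicate 1). With the replicate number as a block the count of genes past the threshold was 0, that of members 2 and the median 0.26. The labels do not say that the numbers pair the libraries, so they were not taken as pairs. Libraries numbered 1 deviated together from their group means and those numbered 2 or 3 did not (correlations across genes of 0.72, -0.44 and -0.23). Deviations from a mean of 3 libraries constrain each other, so these correlations cannot decide whether the numbers pair.

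Leaving out 1 library turned the sign of 16 members, with these ranges of the log2 change: HSPG2 -0.18 to 1.49, NID1 -0.20 to 0.98, NID2 -0.39 to 0.72, AGRN -0.10 to 0.97, LAMB2 -0.054 to 1.10, LAMA5 -0.15 to 0.85, ITGA5 -0.30 to 1.05, ITGA11 -0.54 to 0.50, ITGA10 -0.19 to 0.57, ITGA3 -0.058 to 0.72, ITGB5 -0.13 to 0.65, ITGB3 -0.030 to 0.23, ITGA1 -0.035 to 0.15, ITGAV -0.020 to 0.061, ITGB1 -0.20 to 0.018 and ITGB3BP -0.24 to 0.0076. Signs also turned under median centring (ITGA1 -0.0094, ITGA11 -0.035, ITGAV -0.054), quantile normalization (ITGA11 -0.022), array weights (ITGA1 -0.020, ITGA10 -0.00081, ITGA11 -0.21, ITGAV -0.017) and with BPA replicate 3 and control replicate 2 both left out (NID2 -0.11, ITGA10 -0.023, ITGA11 -0.32). The cause was not tested, and none of these values had passed. The other 10 members kept their sign under every alternative run that tested them.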
